A study of Drosophila melanogaster with 12 samples.

Results

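The 10 genes examined make or carry the eye pigments of Drosophila melanogaster: cn, bw, v, w, st, Pu, se, cl, ry and mal. The rule names them as genes of pigment synthesis and transport and uses no measured value, though earlier results of these data were known when it was written. Of the 10 genes, 9 had a probe set, with 10 probe sets in all among the 13966 that were tested; bw had 2 and the others 1 each. No probe set was paired with w (white) in the tables used here, and w was not analysed here. The probe set of v is unnamed in the platform annotation and was taken from the RefSeq gene table, which lists that probe set as an alias of v; the 111 other probe set aliases that the annotation also names pointed to the same gene in both tables.

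All 12 arrays carried RNA of adult heads from flies of the cn bw strain, so both mutated genes were shared by every sample and no wild-type flies were compared. Flies that had lived for 3 days in cycles of 12 hours light and 12 hours dark were taken every 4 hours through another such day (6 arrays, ZT4 to ZT24, Zeitgeber time being hours since lights on) and through the following day without light (6 arrays, circadian times CT4 to CT24). Each array pooled about 100 to 200 heads. Each time point had 1 array, and whether the collections were separate is not stated, so p-values from limma rest on the scatter of single arrays about a fitted curve and those of correlations on exchanging single arrays. Both measure only the spread between these arrays, which may be technical. The alleles, sex and age of the flies are not stated in the sources used here. The dark day came second, so lighting and elapsed time cannot be told apart.

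Fly eye colour comes from pigment granules that hold brown ommochromes, made from tryptophan, and red drosopterins, made from GTP by way of pteridines. Precursors of both enter the granules through ABC half-transporters that pair with the White protein. Flies that lack both cn and bw function make neither pigment class in quantity and have white eyes. The pteridine branch also yields tetrahydrobiopterin, the cofactor for the synthesis of dopamine and serotonin. The comparisons asked whether transcripts of these pathways were expressed in heads of the double mutant, whether they followed a daily course, and whether they differed between the day with light and the day without.

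The deposited values are log2 signals from RMA, which normalizes arrays and summarises the probes of each set. Probe sets differ in how well they bind, so no level of 1 pigment gene was compared with that of another. As a rough guide only, subject to the same limit, each mean over 12 arrays was set against the 28 probe sets of gustatory receptor genes, which are weakly expressed in whole heads; their median was 3.68 and their 95th percentile 6.27. The pigment genes v, Pu, se and cl, 4 of the 9, exceeded that 95th percentile, as did 18.7% of all tested probe sets. With the median of all tested probe sets (4.85) as the reference, 8 of the 9 genes exceeded it and cn did not.

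No pigment gene was called in any comparison. For the mean level of constant darkness against the light/dark day, limma called 0 of 9 genes at an adjusted p under 0.05, against 0% of all tested probe sets, and 0 of 9 had an unadjusted p under 0.05, against 3.65%. For a daily rhythm with a period of 24 hours, 0 of 9 were called (0.00716% of all probe sets) and 0 had an unadjusted p under 0.05 (1.65%). For a difference of the rhythm between the days, 0 of 9 were called (0.00716%) and 0 had an unadjusted p under 0.05 (2.62%). The days overlapped in range for all 9 genes, and 0.193% of all probe sets had days that did not overlap. Of the 9 genes, 5 were higher and 4 lower in constant darkness, with a median difference of 0.03, against -0.01 over all tested probe sets. In RNA of whole heads, fewer cells of a type and less RNA per cell cannot be told apart.

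**Figure D1:**
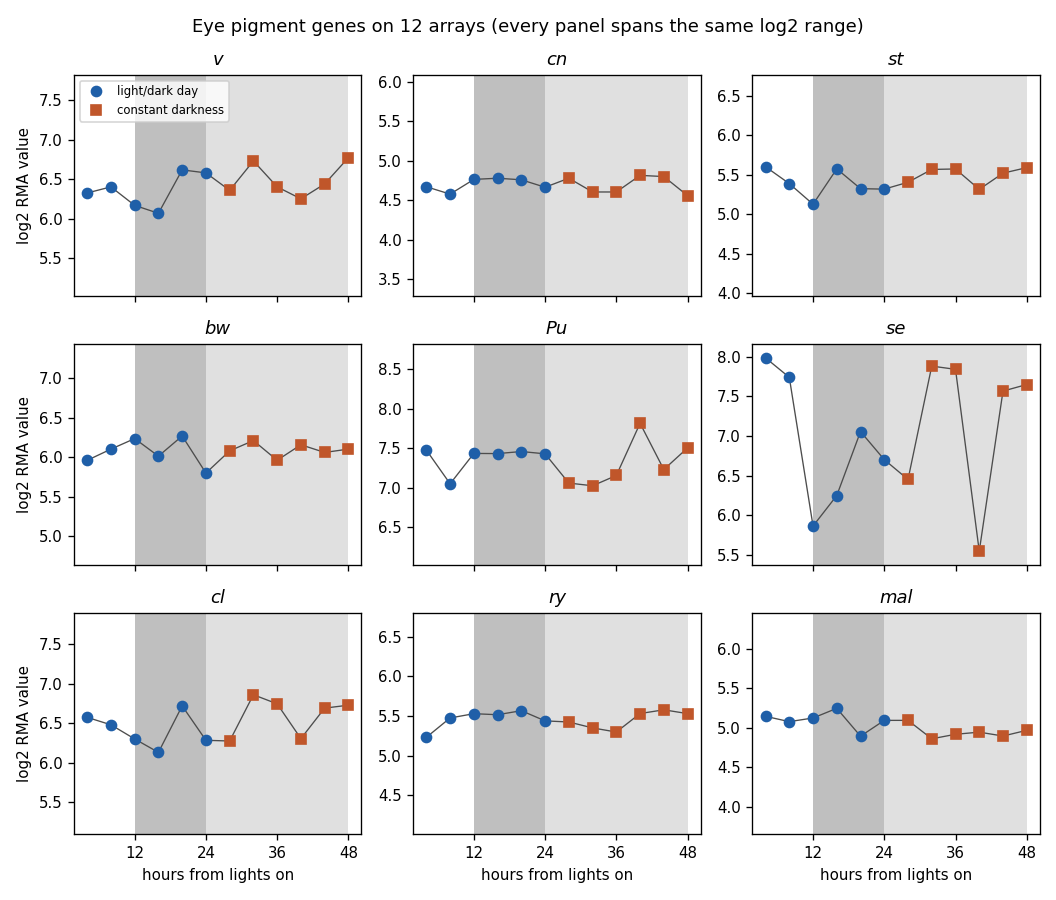
Log2 RMA value (vertical axis) of 9 eye pigment genes on each of the 12 arrays against hours from lights on (horizontal axis), circles for the light/dark day and squares for constant darkness; white marks light, dark grey the night and light grey the day without light, and all panels span the same log2 range. The sepia gene se moves between 5.54 and 7.99, while cn stays between 4.56 and 4.81.

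The strain's own ommochrome gene, cn (cinnabar), encodes kynurenine 3-monooxygenase, which makes 3-hydroxykynurenine, the direct precursor of the ommochromes. Its signal ran from 4.58 through a median of 4.71 to 4.78 in the light/dark day. In constant darkness it ran from 4.56 through 4.69 to 4.81. The lowest arrays were CT24 and ZT8 and the highest CT16 and CT20, and the days overlapped almost completely. The means were 4.70 ± 0.08 (SD, n = 6) and 4.69 ± 0.12, a difference of -0.01 ± 0.06 (SE) with a 95% interval from -0.15 to 0.13. That interval corresponds to 0.903-fold to 1.09-fold. The SD over all 12 arrays, 0.09, was lower than that of most probe sets: 10.8% had a smaller one. Of the 28 gustatory receptor probe sets, 6 lay above the mean of cn; whether its signal stood above background was not tested. Which part of the transcript the probes cover relative to the mutation is not stated here.

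The strain's other mutated gene, bw (brown), encodes the half-transporter that pairs with White to carry pteridine precursors. Its stronger probe set ran from 5.80 through a median of 6.06 to 6.27 in the light/dark day and from 5.96 through 6.09 to 6.21 in constant darkness. Its lowest array was ZT24 and its highest ZT20, which lie next to each other in time. The 3' minus 5' signal of control genes, a sign of RNA quality, was 3.32 at ZT24 and 1.60 at ZT20. The r of bw with that signal was -0.76 within the light/dark day and 0.26 within constant darkness. Over the 12 arrays it was -0.49 (adjusted permutation p = 0.2718), and -0.01 without the 2 farthest arrays. The part of RNA quality in bw was not tested. The difference between the days was 0.03 ± 0.08 (SE), with a 95% interval from -0.15 to 0.22, and 2 of the 28 gustatory receptor probe sets were above the mean of this stronger probe set. The second probe set of bw was weaker, from 3.06 to 3.57, with 18 of those 28 probe sets above it, and its difference was -0.06 ± 0.09. Over the 12 arrays no correlation between the bw probe sets was detected (Pearson r = -0.28, permutation p = 0.3756; Spearman rho = -0.28, permutation p = 0.3832). Within the days r was -0.39 and 0.22, and without the 2 farthest arrays it was 0.03.

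The enzyme upstream of cn in the ommochrome branch is tryptophan 2,3-dioxygenase, encoded by v (vermilion), which opens the tryptophan ring. The signal of v ran from 6.07 through 6.36 to 6.62 in the light/dark day and from 6.25 through 6.42 to 6.77 in constant darkness. Its lowest arrays were ZT16 and ZT12 and its highest CT24 and CT8. The difference was 0.13 ± 0.10 (SE) with a 95% interval from -0.10 to 0.36, and the fitted daily amplitude, the peak minus the mean of the fitted curve, was 0.17 ± 0.07 with a peak at 1.5 hours (unadjusted p = 0.1225 by limma, adjusted p = 1). The half-transporter gene st (scarlet), whose protein pairs with White for ommochrome precursors, ran from 5.13 at ZT12 to 5.60 at ZT4 and from 5.32 at CT16 to 5.59 at CT24. Its difference was 0.11 ± 0.09 with an interval from -0.09 to 0.31, and its amplitude was 0.05 ± 0.06. Without ZT16, ZT24, CT4 and CT8 the difference of st was 0.23 (unadjusted p = 0.0367 by limma, not called), and without ZT12 it was 0.05.

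At the head of the pteridine branch stands GTP cyclohydrolase I, encoded by Pu (Punch). In the light/dark day Pu held between 7.43 and 7.47 on 5 arrays and measured 7.05 at ZT8. In constant darkness it was wider, from 7.02 at CT8 through a median of 7.19 to 7.81 at CT16. The difference between the days was -0.08 ± 0.11 (SE), with an interval from -0.33 to 0.17; it was -0.02 without CT20 and -0.18 without CT16. Its amplitude of 0.20 ± 0.08, with a peak at 19.0 hours, had the smallest unadjusted p for a rhythm among the 9 genes (0.0907 by limma, adjusted p = 1).

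**Figure D2:**
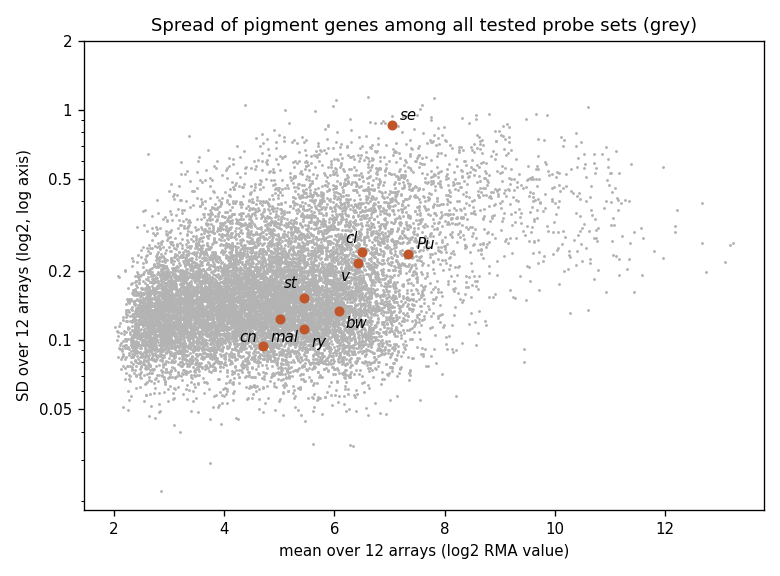
SD over the 12 arrays (vertical log axis, log2 units) against the mean over the 12 arrays (horizontal axis, log2 RMA value) for all 13966 tested probe sets in grey and for 9 eye pigment genes in orange. The gene se lies near the top with an SD of 0.86, and cn lies low with 0.09.

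The gene that varied most was se (sepia), whose product, a glutathione S-transferase of the Omega class, makes the pyrimidodiazepine from which drosopterins form. In the light/dark day se measured 7.99 at ZT4 and 7.74 at ZT8, then 5.86 at ZT12, 6.25 at ZT16, 7.06 at ZT20 and 6.70 at ZT24. In constant darkness it measured 6.45 at CT4, 7.88 at CT8, 7.84 at CT12, 5.54 at CT16, 7.57 at CT20 and 7.65 at CT24. The range over the 12 arrays was 2.45 log2 units, or 5.45-fold, and 99.8% of all tested probe sets had a smaller SD than its 0.86. The median SD of all tested probe sets was 0.15. Low and high values occurred in both days and the days overlapped widely.

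Neither a step between the days nor a 24-hour curve was called for se. The means of the days were 6.93 ± 0.83 (SD, n = 6) and 7.16 ± 0.95, and the difference of 0.22 ± 0.42 (SE) had a 95% interval from -0.71 to 1.16, or 0.612-fold to 2.23-fold, so these arrays do not resolve a change of either sign at this gene. Without CT12 the difference was -0.01, and without CT4 it was 0.55. The fitted amplitude was 0.58 ± 0.30 with a peak at 4.3 hours (unadjusted p = 0.1984 by limma, adjusted p = 1), with 0.84 and 3.8 hours when fitted to the light/dark day and 0.35 and 5.6 hours when fitted to the dark day. The difference of these curves had a size of 0.55 (adjusted p = 0.9861). The amplitude moved to 0.32 without CT16 and to 0.90 without CT4, and in neither fit was it called (adjusted p = 1 and 0.8465). It was 1.08 without ZT16, ZT24, CT4 and CT8 (unadjusted p = 0.0421, adjusted p = 0.6503) and 0.84 with array weights (0.017 and 0.4344), by limma. With the 3' minus 5' signal of control genes, a sign of RNA quality, as a covariate it was 0.78 (0.0132 and 0.7947), and the difference between the days was 0.03.

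A second gene of the final drosopterin steps, cl (clot), encodes a thioredoxin-like protein needed to form the pyrimidodiazepine that se makes. Its signal ran from 6.13 at ZT16 through a median of 6.39 to 6.72 at ZT20 in the light/dark day, and from 6.27 at CT4 through 6.71 to 6.86 at CT8 in constant darkness. The difference between the days was 0.19 ± 0.13 (SE), with an interval from -0.11 to 0.48, and the amplitude was 0.06 ± 0.09. The amplitude lay between 0.0054 without CT16 and 0.16 without CT4. Its SD over the arrays was 0.24, and 79.4% of all probe sets had a smaller one.

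**Figure D3:**
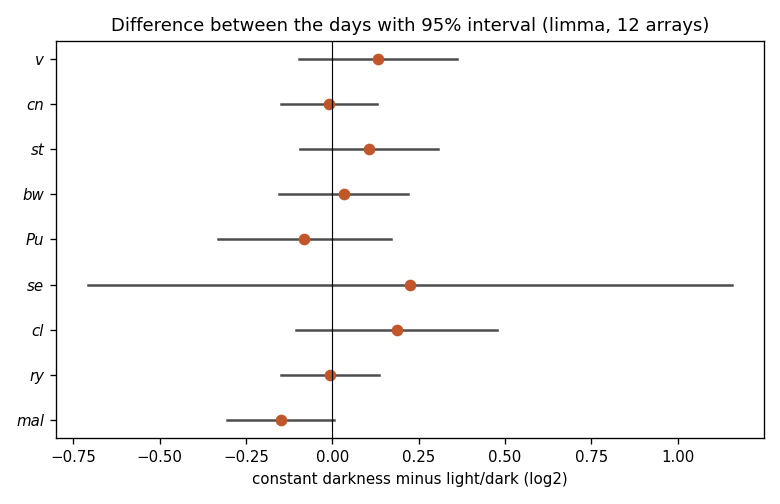
Mean log2 value in constant darkness minus the light/dark day (horizontal axis) for each of 9 genes, with points for the fitted difference and lines for its 95% interval from limma over 12 arrays. All 9 intervals include 0; that of se, from -0.71 to 1.16, is the widest.

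The remaining members serve molybdenum enzymes. The gene ry (rosy) encodes xanthine dehydrogenase, which makes uric acid and isoxanthopterin, and mal (maroon-like) encodes the sulfurase that completes the molybdenum cofactor of that enzyme and of aldehyde oxidases. The signal of ry ran from 5.23 at ZT4 through a median of 5.50 to 5.57 at ZT20 and from 5.30 at CT12 through 5.48 to 5.58 at CT20. Its difference between the days was -0.01 ± 0.06 (SE), with an interval from -0.15 to 0.13. For mal the values were 4.89 at ZT20 through 5.11 to 5.25 at ZT16, and 4.86 at CT8 through 4.93 to 5.09 at CT4. Its means were 5.10 ± 0.12 (SD, n = 6) and 4.95 ± 0.08, a difference of -0.15 ± 0.07 (SE) with an interval from -0.30 to 0.0043 (unadjusted p = 0.0557, adjusted p = 0.9298 by limma). This was the smallest unadjusted p for a day difference among the 9 genes. Without ZT16, ZT24, CT4 and CT8 the difference of mal was -0.07 (unadjusted p = 0.3964 by limma). It was -0.19 without ZT20 (0.0157), -0.18 without CT4 (0.0269) and -0.14 with array weights (0.0477), with unadjusted p by limma. In none of these fits was mal called. The r of mal with the 3' minus 5' signal was 0.55 (adjusted permutation p = 0.23), with 0.44 and 0.84 within the days. The part of RNA quality in mal was not tested.

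Of 6 pairs of genes whose products work together, 4 could be compared over the 12 arrays; those with w could not. The genes se and cl were positively correlated (Pearson r = 0.80, permutation p = 0.0032, adjusted p over the 4 pairs = 0.0126; Spearman rho = 0.71, permutation p = 0.0116, adjusted p = 0.0466), and r was 0.82 without the 2 arrays farthest from the median of se. Both were low in ZT12, ZT16, ZT24, CT4 and CT16 and high in CT8, CT12, CT20 and CT24. The medians over 12 arrays were 7.31 for se and 6.53 for cl. At ZT8 se was above its median (7.74) and cl below (6.48), and at ZT20 se was below (7.06) and cl above (6.72). At ZT4 se was highest (7.99) and cl was 6.57. Within the light/dark day r was 0.67 (exact permutation p = 0.1472, n = 6) and within constant darkness 0.93 (exact permutation p = 0.0181, adjusted p = 0.0722, n = 6). With any 1 array left out r was 0.78 to 0.84 and passed, while rho passed in 2 of these 12 fits, without ZT4 or CT20 (permutation, adjusted p from 0.0236 to 0.1117 over the 12). With each day centred on its own mean r was 0.82 (permutation, adjusted p = 0.0056). Without ZT16, ZT24, CT4 and CT8, 8 arrays remained and r was 0.78 (exact permutation, adjusted p = 0.1191); among those 8 it became -0.39 when the 2 arrays with the most distant se values were also left out. Of all other tested probe sets, 2.2% had an r with se at least as high as that of cl. An r with cl at least as high as that of se was found for 5.75% of them. Pigment genes not listed as partners also gave r of nearly this size, without a test. It was -0.79 for cl with mal, 0.73 for v with cl, -0.72 for cn with se and 0.68 for st with se. Other such pairs had small r, such as 0.02 for bw with Pu and -0.05 for v with ry. A strong r was thus not confined to the listed partners.

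**Figure D4:**
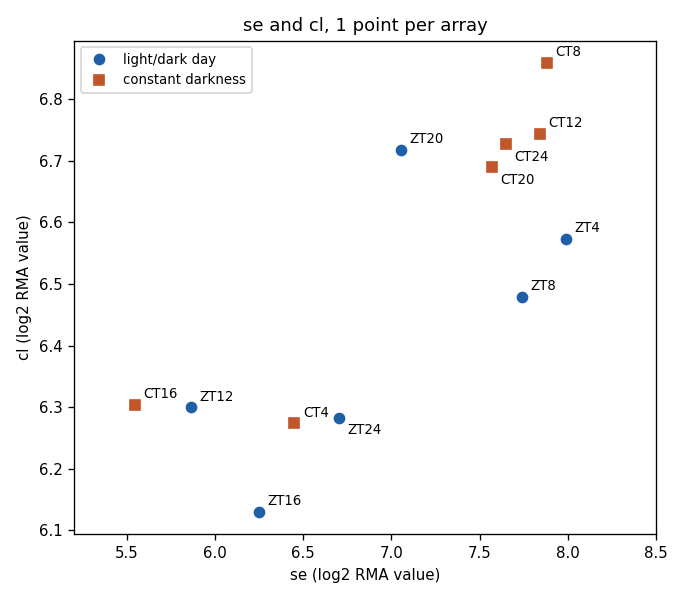
Log2 RMA value of cl (vertical axis) against that of se (horizontal axis), 1 labelled point per array, circles for the light/dark day and squares for constant darkness. Arrays low in se, such as CT16 and ZT12, are also low in cl, and CT8 is high in both (Pearson r = 0.80, n = 12, permutation p = 0.0032).

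The other pairs did not pass. For v with cn r was -0.59 (permutation p = 0.0461, adjusted p = 0.0923; Spearman rho = -0.60, permutation p = 0.0445), and without the 2 farthest arrays it was -0.40. It was -0.37 within the light/dark day and -0.80 within constant darkness. Without ZT20 r was -0.69 and this pair passed (adjusted p = 0.0427, permutation). Its rho passed without CT20 (-0.74, adjusted permutation p = 0.0319) and with each day centred on its mean (-0.70, adjusted permutation p = 0.0284). In these 2 fits r did not pass (-0.63 and -0.61, adjusted permutation p = 0.0807 and 0.0809). For Pu with se r was -0.54 (permutation p = 0.0723, adjusted p = 0.0964; Spearman rho = -0.35, permutation p = 0.2663), with -0.39 and -0.61 within the days and -0.18 without the 2 farthest arrays. Without CT4 this pair passed (r = -0.68, adjusted p = 0.0402, permutation), as it did after quantile normalization of the columns again (r = -0.74, adjusted p = 0.0125), while without CT16 r was -0.29 (adjusted p = 0.4918, permutation). For ry with mal r was -0.10 (permutation p = 0.7579; Spearman rho = -0.28, permutation p = 0.369), with -0.33 and 0.09 within the days and -0.04 without the 2 farthest arrays.

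Among marker lists of other cell types, the median of the neuron list moved opposite to cl from array to array. Of its 7 measured markers, 2 were above the gustatory receptor reference, and single markers were not tested. The per-array median of a marker list, taken relative to each gene's mean, was compared with each of the 9 genes for 7 lists and for the 3' minus 5' signal; 1 of these 72 relations passed. It joined cl with the neuron list (r = -0.83, permutation, adjusted p = 0.0144; rho = -0.89, adjusted p = 0.0173), with r of -0.79 and -0.90 within the days and -0.87 without the 2 farthest arrays. Correlations that did not pass included those of se with neurons (r = -0.71; rho = -0.73), se with photoreceptors (r = 0.73; rho = 0.71), cl with photoreceptors (r = 0.73; rho = 0.73) and cl with muscle (r = 0.77; rho = 0.66), each with adjusted permutation p = 0.0805 for r, and of cl with the Malpighian tubule list (r = 0.70; rho = 0.73; adjusted permutation p = 0.1262), which had 3 of 5 markers on the array and 0 of those 3 above the gustatory receptor reference. Within the light/dark day r of se was 0.92 with photoreceptors and 0.88 with muscle, and within constant darkness 0.61 and 0.46. The 3' minus 5' signal, 1.60 to 3.32 in the light/dark day and 1.49 to 2.88 in constant darkness, gave r = -0.70 with cl (rho = -0.71; adjusted permutation p = 0.1036) and -0.49 with se (rho = -0.54; adjusted permutation p = 0.2718).

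The photoreceptor list had 9 of 14 markers on the array, 8 of them above the gustatory receptor reference and inaC below it, and its summed log2 level ran from 75.5 to 84.3 in the light/dark day and from 78.9 to 85.4 in constant darkness. The neuron list had 7 of 8, with elav, Syn, brp, para and cac below the reference and sums of 35.8 to 38.1 and 33.0 to 38.9. The muscle list had 6 of 8, with Act88F and TpnC4 below it and sums of 41.1 to 47.1 and 40.6 to 47.0. The list of lens and pigment cells of the eye had 4 of 4, with wrapper below it and sums of 31.3 to 32.8 and 31.7 to 32.9. Its r ran from -0.60 with cn to 0.56 with v and was 0.43 with se and 0.39 with cl. It passed with none of the 9 genes (adjusted permutation p of 0.2251 or more). The part of these cell types in the levels of se and cl was not tested. After a straight line on the 3' minus 5' signal had been taken out of both genes, an alternative added after the data had been seen, r of se with cl was 0.73 (adjusted p = 0.0242, permutation). Without the 2 farthest arrays this r was 0.59 (unadjusted permutation p = 0.073).

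**Figure D5:**
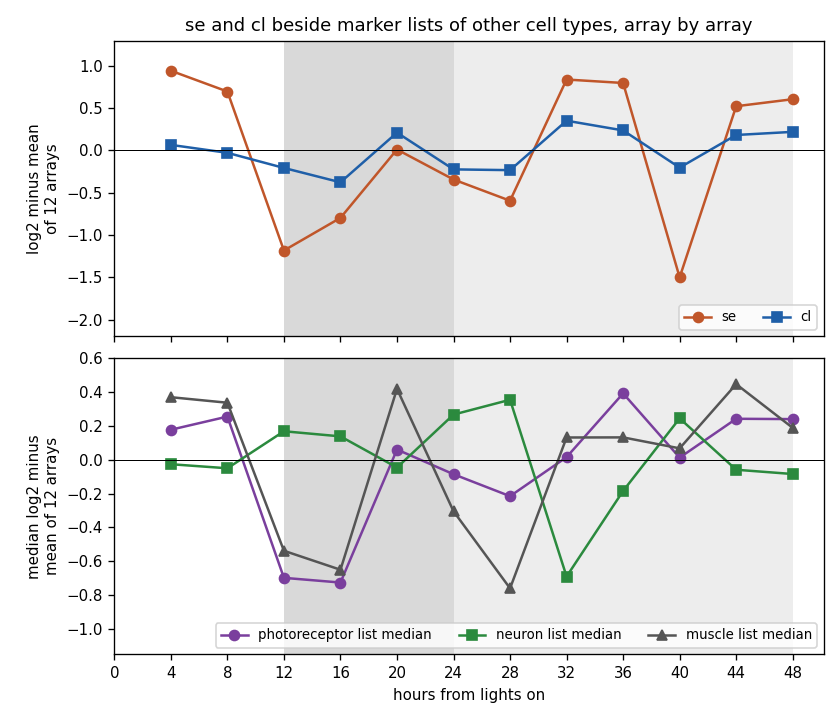
Upper panel: se and cl as log2 value minus the mean of 12 arrays; lower panel: median of the photoreceptor, neuron and muscle marker lists on the same scale; horizontal axis, hours from lights on, with dark grey for the night and light grey for the day without light. In CT8 (hour 32) the neuron list is at -0.69 while cl is at its highest. In CT16 (hour 40), where se is lowest (5.54), the photoreceptor list is at 0.01 and the muscle list at 0.07. In ZT12 (se 5.86) these lists are at -0.70 and -0.54, and in ZT16 (se 6.25) at -0.73 and -0.65.

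Around the 9 genes, 43 others of the same pathways had been listed, and 34 had a probe set. In limma 0 of the 34 were called for the difference between the days or for a rhythm or its difference; 0 had an unadjusted p under 0.05 for the day difference, against 3.65% of all tested probe sets, and 2 for a rhythm, Rab32 and snu, against 1.65%. Of the 34 genes, 25 were higher and 9 lower in constant darkness, with a median difference of 0.05, while 44.5% of all tested probe sets were higher. Hn and cin were not analysed here.

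In the ommochrome branch, KFase, which encodes kynurenine formamidase, the step between v and cn, measured 6.23 ± 0.31 (SD, n = 6) with light and 6.42 ± 0.31 without. The gene kar (karmoisin) measured 6.28 ± 0.16 and 6.44 ± 0.10. The peroxidase gene cd (cardinal), tied to the last ommochrome step, stood at 5.42 ± 0.09 and 5.47 ± 0.06, and its SD over 12 arrays of 0.08 was undercut by 3.61% of probe sets.

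Among the other pteridine genes, pr (purple), which encodes 6-pyruvoyltetrahydropterin synthase and supplies the substrate of the sepia enzyme, varied most. It measured 8.22, 8.20, 7.35, 7.87, 6.66 and 8.26 from ZT4 to ZT24, and 7.65, 7.78, 8.21, 7.25, 7.96 and 8.04 from CT4 to CT24. It was below its median of 7.91 at ZT12, ZT16, CT4 and CT16, where se was low, and at CT8, where se was 7.88. It was lowest at ZT20, where se was 7.06, and highest at ZT24, where se was 6.70. Its SD of 0.49 exceeded that of 96.2% of probe sets. In 3 pairs added after these values had been seen, pr with se gave r = 0.53 (permutation p = 0.0749, adjusted p = 0.2248; Spearman rho = 0.57, permutation p = 0.0558), pr with cl 0.04 (permutation p = 0.8948; rho = 0.08, permutation p = 0.818) and Pu with pr -0.36 (permutation p = 0.2567; rho = -0.20, permutation p = 0.5437). For pr with se r was 0.36 and 0.90 within the days and 0.66 without the 2 farthest arrays. The sepiapterin reductase gene Sptr measured 5.93 ± 0.14 (SD, n = 6) and 5.96 ± 0.20, and the dihydropterin deaminase gene DhpD 6.61 ± 0.25 and 6.66 ± 0.13.

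Of the genes that build pigment granules, which are relatives of lysosomes, 16 of 20 were measured, and their differences between the days lay between -0.17 and 0.18 with a median of 0.05. The gene g (garnet), a subunit of the AP-3 sorting complex, measured 5.12 ± 0.07 (SD, n = 6) and 5.07 ± 0.07. The GTPase gene Rab32 (lightoid) measured 8.59 ± 0.26 and 8.68 ± 0.08, with an amplitude of 0.18 ± 0.06 (SE) and a peak at 22.5 hours (unadjusted p = 0.0447, adjusted p = 1 by limma). Among relatives of the White half-transporter, Atet measured 5.56 ± 0.33 and 5.59 ± 0.35, and snu had an amplitude of 0.31 ± 0.10 with a peak at 22.0 hours (adjusted p = 1 by limma). Of the 7 other purine and molybdenum cofactor genes on the array, 4 were higher and 3 lower in constant darkness; their largest difference was that of the aldehyde oxidase gene AOX1, 0.30 ± 0.14 (SE).

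The genes most like cn, bw and v in their course over the 12 arrays were named by the highest Pearson r among 5662 other genes whose mean reached the median of all probe sets. For cn they were Mfap1 (0.91), CG13170 (0.87) and CG31635 (0.86). For bw they were CG7387 (0.88), CG14244 (0.87) and nis (0.87). For v they were Dic1 (0.89), RpS27A (0.89) and RpS15 (0.88). These are the extremes of many comparisons over few arrays and are given as a description.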

How the data were processed

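RNA from heads of cn bw flies was measured on 12 arrays with Affymetrix control probe sets, 1 per time point. The authors deposited log2 values per probe set made with RMA, per the submitters' processing notes, with no version; the log base is inferred from the values, 1.72 to 13.52. Array medians lay between 4.80 and 4.88. No read depth exists for arrays, and their number limits the precision. Of 14010 probe sets, 44 controls were set aside. Names came from the platform annotation, updated through gene identifiers in the RefSeq table of assembly Release 6 plus ISO1 MT (12443 probe sets with 1 gene, 327 with several), and 20 more from probe set aliases in that table. No sequence or coordinate is given.

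All probe sets were fitted with limma 3.58.1 in R 4.3.3 and adjusted by Benjamini-Hochberg over 13966: day with a common cosine and sine of 24 hours, and a model with a separate curve per day. A gene with several probe sets was represented by the one with the highest mean. Correlations used 100000 permutations, or all orders for under 10 arrays. The fits were tested on simulated data. The members, lists and tests were chosen with earlier results of these data known. Named besides the members were kar, cd, KFase, pr, Hn, Sptr, DhpD, g, ltd (now Rab32), cin, Atet and any gene past a threshold; Rab32 and snu are also named for their unadjusted p, and AOX1, the relations with markers and the pairs with pr were chosen after values were seen. Alternatives were quantile normalization, an added 16 on the linear scale, a filter on dim probe sets, array weights and an intensity trend. Others were array quality as a covariate, the mean over probe sets, other terms for the hour, and arrays left out. ZT16, ZT24, CT4 and CT8 were also left out together, a set whose basis is not given here. Their 3' minus 5' signals were 2.58, 3.32, 2.88 and 2.02, and that of ZT12, which was kept, was 2.13.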

Additional observations from a re-analysis of the deposited data

Results flagged for a closer look

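In 38 groups of 6 arrays, from the 10 probe sets of pigment genes and 9 other named genes in each day, 2 values lay far from the other 5 of their day; chance gives about 1 in 20 groups. Pu was at 7.048 in ZT8, against 7.427 to 7.474 in the other arrays of the light/dark day. The weaker probe set of bw was at 3.506 in CT4, against 3.204 to 3.313 in the other arrays of constant darkness, and CT4 had a 3' minus 5' signal of 2.88; the part of RNA quality in that value was not tested.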

How the results depend on the processing

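For the day difference, 0 of the 9 genes were called under each of 22 alternatives, with the smallest adjusted p at 0.3194, and for the rhythm and its difference between days 0 under each of 20 (0.4344 and 0.7202). With the hour of day as a replicate block 0 were called; same-hour arrays of the days are different flies, and their deviations from the day means correlated between -0.64 and 0.39, over 0.1 in 2 of 6 pairs, so the hours were not taken as pairs. The number of called gene pairs, 1 in the report, was 2 after quantile normalization again, 0 without ZT16, ZT24, CT4 and CT8, 0 in the light/dark day alone and 0 in constant darkness alone, and 1 to 2 with any array left out; the smaller designs have fewer arrays. Differences near 0 changed sign: cn was 0.0039 after quantile normalization again and -0.047 to 0.024 with any array left out; bw was -0.013 for the mean of its probe sets, -0.16 without those 4 arrays and -0.019 to 0.086 with any array left out; ry was 0.018 with array weights and -0.045 to 0.027 with any array left out; se was -0.0089 to 0.55. The r of ry with mal was 0.094 in constant darkness alone and -0.26 to 0.14 with any array left out. Other differences kept their sign but moved by over 1.5 times with 1 array left out, to between 0.067 (without CT8) and 0.20 (without CT4) for v and to 0.28 for cl without CT4. The amplitude of st lay between 0.015 without ZT4 and 0.10 without ZT16, and was 0.20 without the 4 arrays. None of these was called, and the causes were not tested. The number above the gustatory receptor reference stayed at 4 with any array left out.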

Other observations

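The genes most like se and cl over the 12 arrays were looked up after the spread of se had been seen. The search left out the 9 measured pigment genes, so none of these could appear. For se they were CG16772 (r = 0.95), the ubiquitin gene Ubi-p5E (0.94), which ran from 8.999 to 11.91, and the proteasome subunit gene Prosbeta4 (0.94). For cl they were the ribosomal protein gene RpS12 (0.98), Hacd1 (0.98) and the translation initiation factor gene eIF3b (0.97). For pr they were CG18302, CG1468 and UQCR-14, each with r between 0.91 and 0.92. These are the highest of 5662 values each and carry no test.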
